A study of Mus musculus with 8 samples.

Results

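The genes described here are 10 mouse chemokines measured in cultured cardiac fibroblasts: Ccl2, Ccl5, Ccl7, Ccl8, Ccl9, Cxcl1, Cxcl5, Cxcl10, Cxcl12 and Cxcl16. They were taken by symbol from a table of read counts for 55414 genes. All 10 passed the filter on low counts and were tested among 15150 genes. Ccl5 and Cxcl10 formed the interferon-linked group, and the other 8 were set against them.

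The fibroblasts came from C57BL/6J hearts and were used at passage 2. Cultures were starved of serum for 24 h, held with an adenovirus for 5 h, and then kept for 48 h in medium with bFGF and TGFb, each at 20 ng/mL. The control virus carried GFP and the other carried Has2, the gene of a hyaluronan synthase, with 4 libraries for each virus. All 8 cultures thus shared an adenovirus and both growth factors, and no uninfected culture is analysed here. The labels give the genotype as wild type, whereas the protocol names mice with the Has2fl/fl allele. No age is given. Replicates 1 and 2 were female and replicates 3 and 4 male. A preparation identifier in the library names is shared by same-numbered libraries of both viruses, which are treated below as 4 pairs. The identifiers of the sexes begin with different letters, so sex and series of preparations cannot be told apart. The labels do not state whether separate animals were used, and p-values therefore reflect the spread of these 8 samples alone, which may be technical.

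Chemokines are small secreted proteins that bind receptors on leukocytes and direct their migration along a gradient. Fibroblasts of the injured heart are a known source of them: Ccl2 and Ccl7 draw monocytes that carry Ccr2, and Cxcl1 and Cxcl5 draw neutrophils that carry Cxcr2. Ccl5 and Cxcl10 attract T cells and monocytes and are induced by interferons and by NF-kappaB. Cxcl12 signals through Cxcr4 and is made without an inflammatory stimulus.

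The promoters of Cxcl10 and Cxcl1 are shown because they set the interferon-linked group beside the neutrophil chemokines. Each window runs from 250 bases before to 50 bases after the RefSeq start (build GRCm38.p6), 5′ to 3′ on the gene's own strand. The Cxcl10 window is chr5:92348840-92349139, minus strand, and the Cxcl1 window is chr5:90890995-90891294, plus strand. Capitals mark matches to GAAANNGAA, the core of the interferon-stimulated response element, and to GGGANNTTC, a short form of the NF-kappaB site.
Cxcl10: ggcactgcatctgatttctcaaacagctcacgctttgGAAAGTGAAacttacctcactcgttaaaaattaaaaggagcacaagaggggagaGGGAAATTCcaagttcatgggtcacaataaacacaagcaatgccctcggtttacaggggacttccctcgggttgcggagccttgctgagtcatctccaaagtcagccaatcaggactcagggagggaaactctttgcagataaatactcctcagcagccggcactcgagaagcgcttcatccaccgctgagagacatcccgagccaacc
Cxcl1: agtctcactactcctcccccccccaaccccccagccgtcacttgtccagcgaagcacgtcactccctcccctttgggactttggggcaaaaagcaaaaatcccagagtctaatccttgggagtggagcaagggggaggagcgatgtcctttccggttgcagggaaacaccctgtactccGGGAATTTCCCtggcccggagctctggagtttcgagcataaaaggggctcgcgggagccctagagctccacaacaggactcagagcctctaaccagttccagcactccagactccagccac

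In the Cxcl10 window GAAAGTGAA began 213 bases upstream of the start and GGGAAATTC began 159 bases upstream. The Cxcl1 window held no match to the interferon motif. Its GGGAATTTC began 71 bases upstream and overlapped a match on the reverse strand that began 69 bases upstream. On either strand, the interferon motif occurred in 8.56% and the NF-kappaB motif in 3.94% of 32851 RefSeq promoter windows of the same length. Windows were found for 5 of the 10 genes. Those of Ccl8, Ccl9 and Cxcl12 held neither motif. TATAAA, present in 13.6% of all windows, began 32 bases upstream in Ccl8. Ccl9 held 3 matches, which began 224, 94 and 92 bases upstream, and Cxcl1, Cxcl10 and Cxcl12 held none. These matches describe letters only.

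Libraries held 46981231 to 55795187 counts. Levels are given in CPM, counts scaled to a common library size by the trimmed mean of M values. Has2 checked the labels: it rose from between 7.36 and 25.2 CPM with GFP virus to between 3209 and 9533 CPM with Has2 virus, and the groups did not overlap. Summed over 10 fibroblast markers the libraries held 24826 to 38781 CPM. Over 14 macrophage markers, all detected, they held 1032 to 2514 CPM with GFP virus and 965 to 2695 CPM with Has2 virus. Mural cell markers summed to 48.2 to 96.8 CPM, endothelial markers to 25.3 to 49.2 CPM and cardiomyocyte markers to 4.55 to 9.19 CPM. Lymphocyte markers reached at most 0.123 CPM, with Nkg7 at 0 in every library. In such bulk samples, fewer cells of a type and less RNA per cell cannot be told apart.

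Among control cultures the levels of the 10 genes per kilobase of longest transcript fell into 3 tiers. The upper tier held Ccl7 at 116 ± 30.5 CPM per kilobase, Ccl2 at 90.4 ± 50.7, Cxcl12 at 45.8 ± 6.99 and Cxcl16 at 42.3 ± 4.37 (SD, n = 4). Ccl9 at 14.9 ± 2.85 and Ccl8 at 10.6 ± 2.47 CPM per kilobase made up the middle tier. The lowest tier was Cxcl5 at 5.52 ± 1.497, Ccl5 at 4.62 ± 1.32, Cxcl1 at 3.45 ± 1.347 and Cxcl10 at 1.84 ± 0.550 CPM per kilobase. Neighbours in this order had separate ranges only between Cxcl16 and Ccl9 and between Ccl8 and Cxcl5. All other neighbours overlapped, and with the union of exons as length Cxcl12 and Cxcl16 changed places, as did Ccl5 and Cxcl1. Both interferon-linked genes lay in the lowest tier. With Has2 virus the order was the same except that Cxcl1, at 3.46 CPM per kilobase, came before Ccl5 at 2.19.

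**Figure D1:**
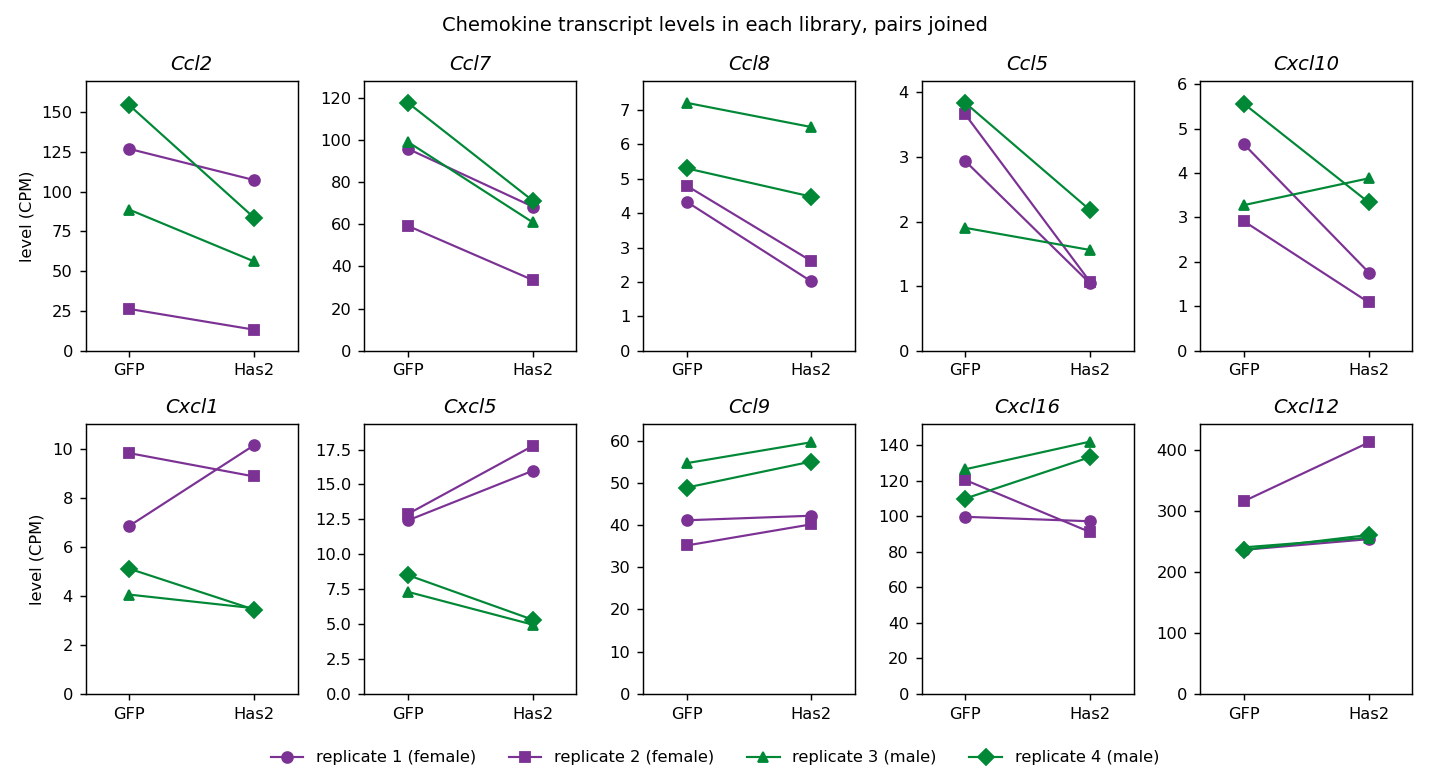
Level of each chemokine in every library, in CPM on linear axes that start at 0, by virus, with lines joining the 2 libraries of a pair and colours for sex. The GFP and Has2 groups overlap for all 10 genes, and replicate 2 holds the lowest Ccl2 values of both groups, 26.3 and 13.2 CPM.

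Has2 virus was compared with GFP virus to see how chemokine transcripts differed in cultures with high Has2. Ccl7, Ccl2, Ccl8 and Ccl5 were lower with Has2 virus in all 4 pairs, and Ccl9 and Cxcl12 were higher in all 4. Among all genes tested, 7.96% were lower and 9.16% higher in all 4 pairs. No chemokine had groups that did not overlap, against 1.51% of genes for lower and 0.871% for higher values. None of the 10 passed 0.05 in edgeR's quasi-likelihood test after adjustment over 15150 genes, where 0.0066% of genes, Has2 alone, passed. With unadjusted p under 0.05 in edgeR, Ccl5 and Ccl7 were lower, against 2.11% of all genes, and none was higher, against 0.449%.

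With the replicate number as a block, edgeR again gave no adjusted call among the 10 (0.0066% of genes). Its unadjusted calls rose to 5, all lower with Has2 virus: Ccl2, Ccl5, Ccl7, Ccl8 and Cxcl10, against 4.91% of all genes. None was higher, against 2.57%. Without the block, DESeq2 called none of the 10 (0.0462% of genes), nor did limma-voom (0.0066%). DESeq2 with the block called Ccl2 and Ccl7 lower, against 0.323% of genes called lower and 0.0792% called higher.

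Ccl7 (ENSMUSG00000035373), a monocyte chemoattractant that binds Ccr2, measured 95.8, 59.2, 99.1 and 118 CPM with GFP virus in replicates 1 to 4. The same preparations with Has2 virus measured 68.4, 33.6, 60.9 and 71.2 CPM. Every pair was lower with Has2 virus, by close steps, while the groups overlapped because replicate 2 was low under both viruses. The pair log2 ratios were -0.49, -0.82, -0.70 and -0.72. The fitted log2 fold change of Ccl7 was -0.67 (SE 0.27, 95% interval -1.27 to -0.07, unadjusted p = 0.0331, adjusted p = 1.00 in edgeR). The blocked edgeR fit gave -0.68 (SE 0.10) with an adjusted p of 0.516, and DESeq2 with the block gave -0.67 with an adjusted p of 1.22e-05. Without replicates 1, 2 or 4 this DESeq2 call held (adjusted p 0.00538, 0.0294 and 0.0480). Without replicate 3 it was lost (DESeq2 adjusted p = 0.0824). In the male libraries alone edgeR called 1 of the 10, Ccl7 (-0.71, adjusted p = 0.0279), against 9.25% of genes, and in the female libraries alone it called no gene. In the blocked edgeR fit by sex, Ccl7 stood at -0.65 in females and -0.71 in males. With the trend on GC content and length of transcripts, described below, also removed, these values were -0.46 and -0.23.

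Ccl2 (ENSMUSG00000035385), the main ligand of Ccr2, measured 127, 26.3, 88.7 and 154 CPM with GFP virus. It measured 107, 13.2, 56.2 and 83.7 CPM with Has2 virus. Replicate 2 stood far below the rest under both viruses, and all 4 pairs were lower with Has2 virus. The spread between preparations exceeded the difference between the viruses: the log2 fold change was -0.61 with an SE of 0.63 (95% interval -2.01 to 0.80, adjusted p = 1.00 in edgeR). Within pairs the log2 ratios were -0.24, -0.99, -0.66 and -0.88, and the blocked edgeR fit gave -0.69 (SE 0.14, adjusted p = 0.621). DESeq2 with the block gave -0.67 (SE 0.16, adjusted p = 0.0130). This call was lost without replicate 2, 3 or 4, with DESeq2 adjusted p of 0.14, 0.21 and 0.336.

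Ccl8 (ENSMUSG00000009185), a further member of the monocyte chemoattractant family, measured 4.33, 4.80, 7.21 and 5.30 CPM with GFP virus. With Has2 virus it measured 2.01, 2.61, 6.50 and 4.48 CPM. All pairs were lower with Has2 virus, the female pairs more so, and the groups overlapped through the male libraries. The log2 fold change was -0.47 (SE 0.36, 95% interval -1.29 to 0.34, adjusted p = 1.00 in edgeR).

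Macrophages are another source of these monocyte chemokines, and their markers varied with the preparation. The macrophage marker sum was lowest in replicate 2 under both viruses, as was Ccl2. Between the viruses, 9 of the 14 macrophage markers had a positive and 5 a negative log2 fold change, with a median of 0.07. The pair log2 ratios of the marker sum were -0.08, -0.10, 0.17 and 0.22, whereas those of Ccl2 and Ccl7 were negative throughout. In the male pairs the marker sum was thus higher with Has2 virus where Ccl2 and Ccl7 were lower. What macrophage RNA contributed to the level of each chemokine was not tested.

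**Figure D2:**
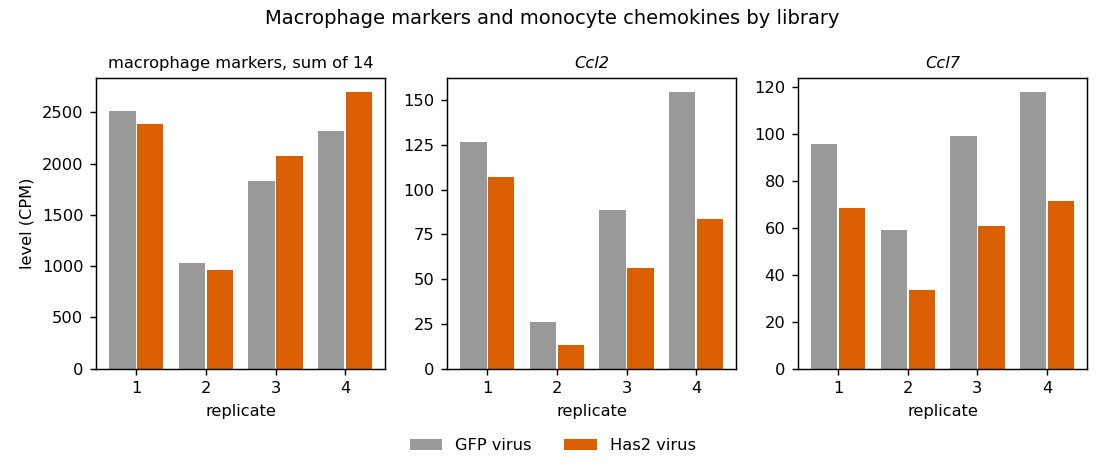
Bars give the summed level of 14 macrophage markers and the levels of Ccl2 and Ccl7 in each library, in CPM, by replicate and virus. Ccl2 and Ccl7 are lower with Has2 virus in all 4 replicates, while the log2 ratio of the marker sum lies between -0.10 and 0.22.

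Ccl5 (ENSMUSG00000035042), which interferons and NF-kappaB induce, was the chemokine with the most negative fold change. It measured 2.94, 3.66, 1.90 and 3.84 CPM with GFP virus and 1.04, 1.07, 1.56 and 2.18 CPM with Has2 virus. The groups overlapped only through replicates 3 and 4, whose Has2 values of 1.56 and 2.18 stood around the GFP value of 1.90. The log2 fold change was -1.08 (SE 0.32, 95% interval -1.80 to -0.35, unadjusted p = 0.00834, adjusted p = 1.00 in edgeR). With the block it was again -1.08 (SE 0.26, edgeR adjusted p = 0.648). Its counts were low, and the lowest count among the 10 genes was 52 reads for Ccl5 in Has2 replicate 2 (exact Poisson 95% interval 38.8 to 68.2, counting error only).

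Cxcl10 (ENSMUSG00000034855), a ligand of Cxcr3 named for its induction by interferon gamma, measured 4.65, 2.91, 3.28 and 5.56 CPM with GFP virus. It measured 1.76, 1.09, 3.88 and 3.34 CPM with Has2 virus. It was lower in 3 of 4 pairs and higher in replicate 3, and the groups overlapped. The log2 fold change was -0.70 (SE 0.40, 95% interval -1.61 to 0.20, adjusted p = 1.00 in edgeR), and -0.81 with the block (SE 0.29, adjusted p = 0.648). With all 4 pairs, DESeq2 with the block called neither Cxcl10 (DESeq2 adjusted p = 0.438) nor Ccl5 (0.0870). Both also missed without replicate 1 (DESeq2 adjusted p 0.612 and 0.297) and without replicate 2 (0.587 and 0.313). Without replicate 4, DESeq2 gave neither an adjusted p. Only without the pair of replicate 3 did DESeq2 with the block call Cxcl10 (-1.16, adjusted p = 0.0490) and Ccl5 (-1.34, adjusted p = 0.0319), against 0.197% of genes. In that fit Ccl2 at -0.69 and Ccl7 at -0.66 were not called, with fold changes near those of all 4 pairs.

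Cxcl1 (ENSMUSG00000029380) and Cxcl5 (ENSMUSG00000029371) both draw neutrophils, and both changed direction between pairs. Cxcl1 measured 6.85, 9.82, 4.05 and 5.10 CPM with GFP virus and 10.1, 8.86, 3.49 and 3.44 CPM with Has2 virus. Cxcl5 measured 12.4, 12.9, 7.31 and 8.51 CPM with GFP virus and 15.97, 17.8, 4.96 and 5.31 CPM with Has2 virus. Female libraries were higher than male libraries for both genes under both viruses. The pooled log2 fold changes were 0.01 for Cxcl1 (95% interval -0.94 to 0.95) and 0.10 for Cxcl5 (95% interval -0.88 to 1.07), each with an edgeR adjusted p of 1.00. With the block these values turned to -0.08 and -0.09.

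Cxcl12 (ENSMUSG00000061353), which retains and recruits cells through Cxcr4, had the highest counts of the 10. It measured 237, 317, 241 and 237 CPM with GFP virus and 254, 413, 257 and 261 CPM with Has2 virus. Each pair was slightly higher with Has2 virus, and replicate 2 stood above the others under both. The log2 fold change was 0.20 (SE 0.19, 95% interval -0.22 to 0.62, adjusted p = 1.00 in edgeR). Without Has2 replicate 2 it was -0.0015 in a fit that kept GFP replicate 2. Without both libraries of replicate 2 the Cxcl12 value was 0.11.

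Ccl9 (ENSMUSG00000019122), a ligand of Ccr1, measured 41.1, 35.1, 54.6 and 48.9 CPM with GFP virus and 42.2, 40.2, 59.6 and 55.0 CPM with Has2 virus. Its pair log2 ratios were 0.04, 0.19, 0.13 and 0.17, all positive and small beside the spread between preparations. The log2 fold change was 0.13 (SE 0.19, 95% interval -0.28 to 0.55, adjusted p = 1.00 in edgeR).

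Cxcl16 (ENSMUSG00000018920), made as a transmembrane protein that Adam10 sheds, measured 99.7, 120, 126 and 110 CPM with GFP virus. It measured 97.2, 91.1, 142 and 133 CPM with Has2 virus. Female pairs were lower and male pairs higher with Has2 virus. The pooled log2 fold change was 0.02 (SE 0.17, 95% interval -0.35 to 0.40, adjusted p = 1.00 in edgeR).

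**Figure D3:**
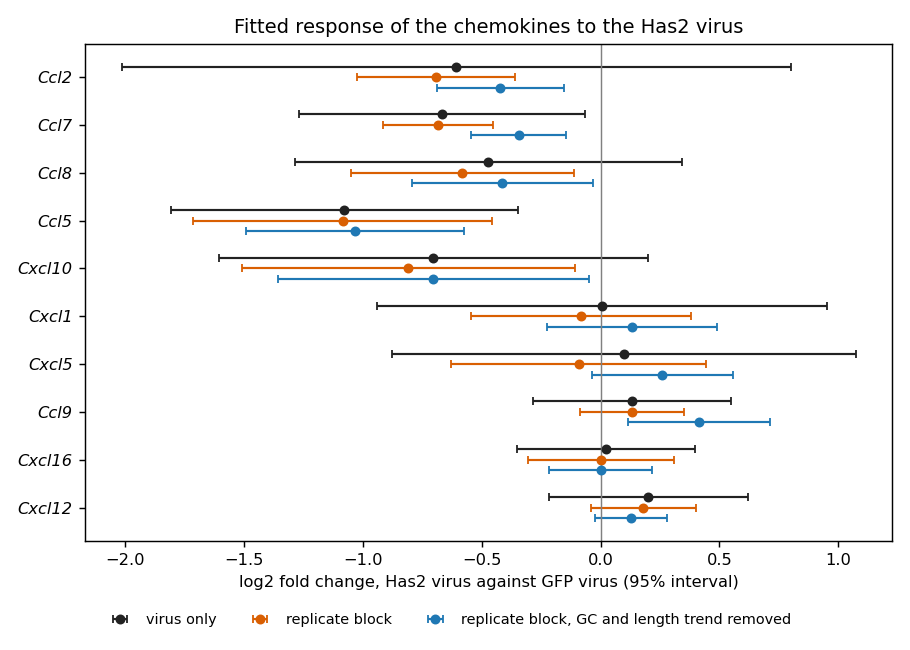
Log2 fold change of each chemokine, Has2 against GFP virus, with 95% intervals, in edgeR without the replicate block, with it, and with it after removal of the trend on GC content and length. Ccl5 at -1.08 and Ccl7 at -0.67 have intervals below 0 without the block, and the Ccl2 interval narrows from an SE of 0.63 to 0.14 with the block.

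Over the interferon-linked pair of genes the median log2 fold change was -0.89, against 0.01 for the other 8 and -0.01 for all genes tested. With the replicate block the medians were -0.95, -0.09 and -0.02. The other 8 were not of one kind: Ccl2, Ccl7 and Ccl8 lay at -0.61, -0.67 and -0.47, near Cxcl10 at -0.70, while the remaining 5 lay between 0.01 and 0.20. With Ccl8 counted as interferon-linked, the medians were -0.70 and 0.02. These medians describe genes chosen with earlier results of these data known, and no difference between the gene groups was tested.

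Sex and virus were then tested together, because the pairs of the sexes moved differently for several chemokines. Without the block no chemokine passed edgeR's test of the sex-by-virus interaction (0% of genes). At an unadjusted p under 0.05 edgeR gave 1 of the 10, Cxcl5, against 13.3% of all genes, and DESeq2 called the same gene (adjusted p = 0.0153, 4.46% of genes). With the block, 5 of the 10 passed an edgeR adjusted p under 0.05, against 29.5% of all genes. In 4 of these the male log2 fold change was the higher one, against 11.5% of genes, and in 1 the lower, against 18%. DESeq2 with the block called 3 of the 10, namely Cxcl5, Cxcl10 and Cxcl16, against 23.7% of genes.

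Both interferon-linked genes differed between the sexes in the blocked edgeR test. Ccl5 stood at -1.63 in females and -0.57 in males, a difference of 1.06 (SE 0.31, adjusted p = 0.0247 in edgeR). Cxcl10 stood at -1.41 in females and -0.25 in males, a difference of 1.15 (SE 0.33, adjusted p = 0.0228 in edgeR). Ccl8 differed in the same direction, from -0.99 to -0.19 (edgeR adjusted p = 0.0164). All 3 genes thus had the more negative value in females. The 14 macrophage markers had a median of -0.14 in females and 0.18 in males. In the same blocked test 8 of these markers were called, against 29.5% of all genes. With the trend on GC content and length also removed, 0 were called, against 10.6% of all genes. The part of these markers in the chemokine differences was not tested. In Ccl5, Cxcl10, Ccl8 and Cxcl16, 4 of the 10, both female pairs were more negative than either male pair, against 33.5% of genes. In Cxcl1 and Cxcl5 both were less negative, against 31.1% of genes. By group, the interferon-linked median was -1.52 in females and -0.41 in males, and that of the other 8 was -0.05 and -0.29.

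Cxcl5 moved in opposite directions. It was 0.41 higher on the log2 scale with Has2 virus in females and -0.62 in males, a difference of -1.03 (SE 0.16, adjusted p = 0.000795 in edgeR). Among all genes, 15.9% were higher in both female pairs and lower in both male pairs, as Cxcl5 was. Cxcl16 showed the opposite crossing, -0.22 in females and 0.22 in males (difference 0.44, edgeR adjusted p = 0.0381), as did 18.6% of genes. Cxcl1 had the sign pattern of Cxcl5 in the fitted values, 0.21 and -0.39, without passing (edgeR adjusted p = 0.104).

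Ccl2 and Ccl7 gave similar values in both sexes. Ccl7 stood at -0.65 in females and -0.71 in males, and Ccl2 at -0.58 and -0.77, with blocked edgeR adjusted p of 0.769 and 0.528 for the difference. Cxcl12 stood at 0.24 and 0.12, and Ccl9 at 0.11 and 0.15.

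Each replicate number was also left out in turn, so that 1 sex held a single pair. The blocked edgeR test then called 5 of the chemokines without replicate 1 (32.8% of genes), 6 without replicate 2 (31.8%), 1 without replicate 3 (17.5%) and 3 without replicate 4 (15.5%). Cxcl5 was called each time. Without replicate 3 the calls of 4 genes were lost while most differences stayed close in size: Ccl8 at 0.75 (edgeR adjusted p = 0.137), Cxcl16 at 0.50 (0.103) and Ccl5 at 0.82 (0.188), with Cxcl10 at 0.68 (0.219). Without replicate 4, Ccl8 at 0.87 (0.063) and Cxcl16 at 0.42 (0.171) missed in edgeR. Without replicate 2, Cxcl16 at 0.26 missed (edgeR adjusted p = 0.186), and Ccl2 (0.00213) and Cxcl1 (0.000336) were called as well.

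Changes over all genes also followed the GC content and length of transcripts, differently in the sexes. Across 15123 genes, which are not independent replicates, the change with Has2 virus correlated with GC content at a Spearman rho of -0.22 and -0.17 in the female pairs and 0.66 and 0.64 in the male pairs. With length the values were 0.25 and 0.49 in the female pairs and -0.097 and -0.36 in the male pairs. The 10 chemokines ranged from 41.3% GC for Cxcl5 to 52.8% for Ccl5, against a median of 49.7% over these genes. Of the 5 genes called in the blocked edgeR test, Ccl5 (52.8% GC, 668 bases) and Cxcl16 (49.8% GC, 2699 bases) lay above that median of GC content. Cxcl10 (47.1% GC, 2230 bases), Ccl8 (47.6% GC, 511 bases) and Cxcl5 (41.3% GC, 1863 bases) lay below it. Among these genes the change was the lower one in males for Cxcl5 alone. The share of GC content and of length in each difference was not tested. With the trend on GC content and length removed beside the block, Ccl9 alone was called (male minus female 0.59, edgeR adjusted p = 0.0107), against 10.6% of genes. The Cxcl5 difference shrank to -0.48 (adjusted p = 0.0991) and that of Ccl5 to 0.62 (adjusted p = 0.263), and the calls of Ccl8 (0.61, adjusted p = 0.124) and Cxcl16 (0.30, adjusted p = 0.175) were lost too. Cxcl10 had a difference of 1.17 and also missed (adjusted p = 0.0627 in edgeR).

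In the comparison of the viruses the same step changed the blocked edgeR values by unlike amounts. Ccl7 moved from -0.68 to -0.34, Ccl2 from -0.69 to -0.42 and Ccl8 from -0.58 to -0.41. Cxcl10 moved from -0.81 to -0.70 and Ccl5 from -1.08 to -1.03. Ccl9 moved from 0.13 to 0.41. At an unadjusted p under 0.05, 5 chemokines were then lower and 1, Ccl9, was higher, against 4.8% and 5.72% of all genes.

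**Figure D4:**
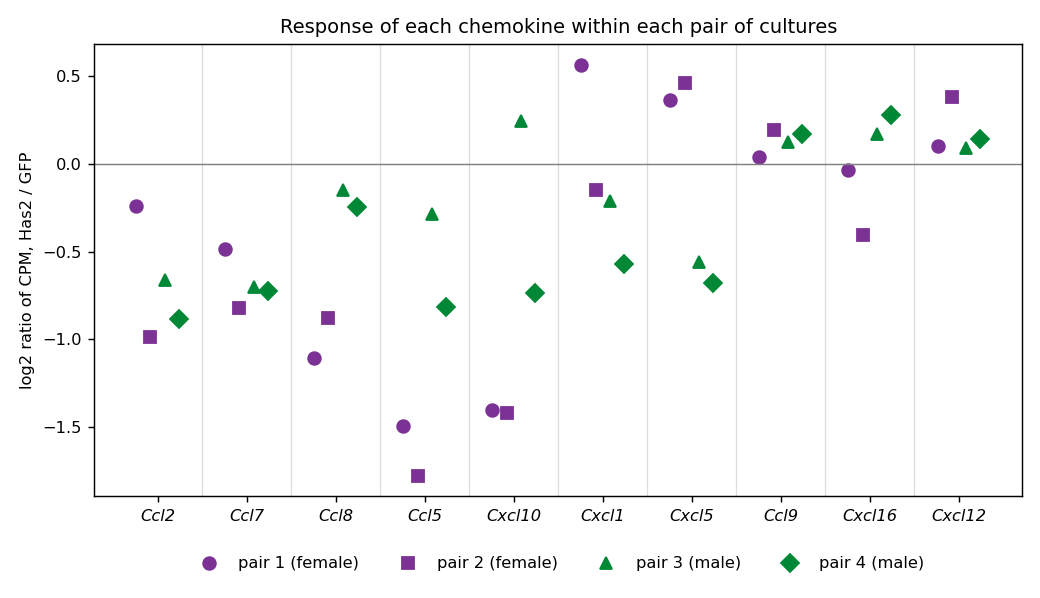
Log2 ratio of Has2 to GFP virus in each of the 4 pairs for each chemokine, female pairs (1 and 2) apart from male pairs (3 and 4). Ccl5 lies between -1.78 and -1.49 in female pairs and between -0.82 and -0.29 in male pairs, and Cxcl5 is above 0 in female and below 0 in male pairs.

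Several receptors of these chemokines were sparse in the same libraries. Of 23 chemokine receptor genes, 9 passed the filter on low counts, and none passed the edgeR test with or without the block, whether p was adjusted or not. Ccr2, the receptor of Ccl2 and Ccl7, had at most 9 reads in a library, Cxcr2 at most 2, Cxcr3 at most 11 and Cxcr6, the receptor of Cxcl16, at most 9. Ackr3, which scavenges Cxcl12, was more abundant, with 26.9 ± 3.36 CPM with GFP virus and 27.1 ± 3.85 with Has2 virus (SD, n = 4). Cxcr4 measured 5.10 ± 1.80 and 5.31 ± 2.00 CPM (SD, n = 4), and Ccr1, the receptor of Ccl9, 7.22 ± 4.16 and 7.44 ± 4.21. These receptors were chosen after their values were seen, as partners of the chemokines described. The receptors with the smallest unadjusted p were Ackr1 (log2 fold change -0.76, SE 0.64) and Ackr2 (0.21, SE 0.49).

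Of 24 further chemokines, 12 were tested, 7 with a negative and 5 with a positive log2 fold change (median -0.07). None passed in edgeR after adjustment, with or without the block. At an unadjusted p under 0.05, 0 passed without the block. With the block 2 were lower, against 4.91% of all genes, and 0 higher, against 2.57%. Those with the smallest unadjusted p were Cxcl3 at -0.47 (SE 0.40), Ccl25 at -0.19 (SE 0.18) and Ccl4 at -0.34 (SE 0.46). Cxcl9 and Cxcl11, which share the receptor Cxcr3 with Cxcl10, had at most 4 reads and 1 read in a library and were not tested. Of Cxcl9, Cxcl10 and Cxcl11, Cxcl10 alone thus passed the filter on low counts.

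Proteases that process chemokines were all tested, 3 of 5 with a negative fold change and none passing in edgeR. Dpp4, which trims Cxcl10 and Cxcl12, stood at -0.94 (SE 0.52) at fewer than 1 CPM in each library. Adam10, the sheddase of Cxcl16, stood at -0.20 (SE 0.32) in the pooled fit, at 0.27 in females and at -0.95 in males in the blocked fit (edgeR adjusted p of the difference 7.09e-05). Cxcl16 itself stood at -0.22 in females and 0.22 in males. Adam17, a related sheddase, stood at -0.23 (SE 0.20) in the pooled fit. In the blocked fit it stood at 0.05 in females and -0.60 in males (edgeR adjusted p of the difference 0.00447). The blocked test of sex by virus called 2 of the 5 proteases, against 29.5% of all genes. With the trend on GC content and length also removed it called 1, against 10.6% of all genes.

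The 24 interferon response genes, all tested, had a negative log2 fold change without exception, with a median of -0.71. None passed in edgeR after adjustment, with or without the block, and 13 passed at an unadjusted p under 0.05. Without the block 2.11% of all genes were lower at that unadjusted p. With the block 21 of the 24 were lower, against 4.91% of all genes. Their median was -0.998 in females and -0.39 in males. Ifi44 at -1.28 (SE 0.20), Gbp3 at -1.11 (SE 0.19) and Ifit3 at -1.02 (SE 0.18) had the smallest unadjusted p, and their groups did not overlap. Ifit3 was more negative in females (-1.31) than in males (-0.70), as Ccl5 and Cxcl10 were, whereas Ifi44 (-1.08 and -1.44) and Gbp3 (-0.97 and -1.25) had the opposite order.

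Of 20 NF-kappaB response genes, all tested, 7 were negative and 13 positive with a median of 0.03, and none passed in edgeR after adjustment or, without the block, at an unadjusted p under 0.05. Il6, a cytokine induced by NF-kappaB, stood at -0.73 (SE 0.35), at -0.05 in females and -1.43 in males. Nfkbiz, which encodes a nuclear regulator of NF-kappaB targets, stood at -0.40 (SE 0.28) and Tnip1, an inhibitor of the pathway, at 0.25 (SE 0.12). Both lists were chosen with earlier results of these data known, so their direction is not independent support for that of the chemokines.

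The genes whose pattern over the 8 libraries lay nearest to each chemokine were found by the root mean square distance of centred log2 CPM among 10291 genes of at least 5 CPM. Nearest to Ccl5 were H2-Q4 (0.28) and Oas1g (0.29), and nearest to Cxcl10 were Cmpk2 (0.17) and Usp18 (0.23). The median distance over all candidates was 0.715 for Ccl5 and 0.744 for Cxcl10. Ccl8 lay nearest to Psmb8 (0.16) and Psmb10 (0.21), and Ccl7 to Nefm (0.14) and Ifi204 (0.20). Ccl2 lay nearest to Ms4a6c (0.28). Cxcl1 had Cxcl5 as its nearest gene (0.19), followed by Maml2 (0.21), whereas Cxcl5 had Klf9 (0.10) and Fam13c (0.12). Cxcl12 lay nearest to Myo1d (0.05) and Rgma (0.07), Cxcl16 to Pusl1 (0.04) and Gcsh (0.04), and Ccl9 to Nfkbie (0.07) and Zfp513 (0.07). The libraries share preparation and depth, so these distances describe patterns only.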

How the data were processed

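Poly(A) RNA of 8 cultures was sequenced from stranded libraries, per the labels' protocols. Raw counts for each Ensembl gene were deposited, made with HTSeq 0.10.0 after FastQC 0.10.1 on build mm39 (GRCm39), per the submitters' processing notes. Aligner, annotation release and strand choice were not given in the sources used here, so reads of overlapping or antisense genes may have been divided in an unknown way, and Has2 reads may include viral transcripts. Symbols, transcript lengths and GC content came from GENCODE M21 (GRCm38): 52081 identifiers matched and 3333 did not, holding 0.405% to 0.871% of counts.

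Groups and replicate numbers came from the labels. Tests were run in edgeR 4.0.16 under R 4.3.3: a quasi-likelihood fit after TMM scaling and filterByExpr, group as the only term, Benjamini-Hochberg adjusted over 15150 genes and called under 0.05. The sex-by-virus interaction was tested likewise. Alternatives were the replicate number as a block, removal of the trend on GC content and length (natural splines, 5 df each), DESeq2 1.42.0, limma 3.58.1 (voom), other scalings and filters, each sex alone, and each replicate left out. The numbers pair the libraries: same-numbered libraries share a preparation identifier, and their deviations from group means had correlations of 0.576, 0.622, 0.527 and 0.437. Within groups, chi-square per degree of freedom ranged from 45.5 to 368, so none is a duplicate. Scripts were tested on simulated data. Log2 CPM used a prior count of 2. The median SE of a log2 fold change was 0.23, or 0.14 with the block.

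The chemokines and gene lists were chosen with earlier results of these data known. The rule for genes named beside the chemokines and Has2 took the 3 of each list with the smallest unadjusted p and the 2 nearest in pattern. Further receptors and chemokines (Ackr3, Cxcr4, Ccr1, Ccr2, Cxcr2, Cxcr3, Cxcr6, Cxcl9, Cxcl11, Cx3cl1, Cxcl14, Ccl12) were chosen after their values were seen. 1 gene that this rule names is not reported here. A Cre virus named in the protocol is not analysed here.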

Additional observations from a re-analysis of the deposited data

Results flagged for a closer look

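Cxcl12 in replicate 2 stood apart from the other libraries of its group under both viruses, at 317 CPM with GFP virus and 413 CPM with Has2 virus. The gap to the nearest library was 0.949 and 0.957 of the group's range, above Dixon's 95% critical value for 4 samples. These were 2 of 20 groups checked, and chance gives about 1 in 20.

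For 5 chemokines the change with Has2 virus differed between the sexes in the blocked edgeR test. The male minus female difference in log2 fold change was 0.80 for Ccl8, 1.06 for Ccl5, 1.15 for Cxcl10, 0.44 for Cxcl16 and -1.03 for Cxcl5. Sex and series of preparations cannot be told apart here, and 29.5% of all genes passed the same test.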

How the results depend on the processing

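Ccl2, Ccl5, Ccl7, Ccl8 and Cxcl10 were negative and Ccl9 positive in every alternative run, but their size moved. Ccl2 (-0.61) was -0.27 without Has2 replicate 2 and -0.95 without Has2 replicate 1, in unpaired fits that kept the other library of the pair. With whole pairs left out, the blocked edgeR fit gave Ccl2 at -0.81, -0.59, -0.70 and -0.60 without replicates 1 to 4. Ccl8 (-0.47) was -0.23 without Has2 replicate 1 and -0.84 without Has2 replicate 3. Cxcl10 (-0.70) was -0.45 without Has2 replicate 2 and -1.08 without replicate 3. Ccl9 (0.13) ran from 0.028 to 0.25 with replicates left out. Over all alternatives Ccl8 ran from -0.97 to -0.20, Cxcl10 from -1.39 to -0.30 and Ccl9 from 0.028 to 0.48. Ccl5 ran from -1.63 to -0.62 and Ccl7 from -0.83 to -0.32. The median of all genes moved by less than 0.1 log2 under other scalings. The number of genes called, 1 in edgeR, was 7 with DESeq2, 61 with DESeq2 and the replicate block, 2 with the trend removed beside the replicate block, 0 in female and 1415 in male libraries alone, and 0 to 42 with each replicate left out. The chemokines called, none in edgeR, were 2 with DESeq2 and the replicate block (Ccl2 and Ccl7), 1 in male libraries (Ccl7, log2 fold change -0.71, adjusted p = 0.0279 in edgeR, 9.25% of genes) and 0 to 2 with each replicate left out. In edgeR the replicate block changed no adjusted call among the chemokines for the virus.

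The median of the other 8, 0.01, was -0.30 in male libraries and -0.25 to 0.052 with replicates left out. Cxcl1 reversed to -0.083 with the replicate block, -0.10 with sex as a covariate, -0.067 with DESeq2 and the block, -0.081 with voom and -0.40 in males, and ran from -0.28 to 0.28 with replicates left out. Cxcl5 reversed to -0.091, -0.10, -0.079, -0.10 and -0.63 in the same order, and ran from -0.28 to 0.34. Cxcl16 reversed to -0.0026 with sex as a covariate and -0.21 in females, with a range of -0.090 to 0.15, and Cxcl12 ran from -0.0015 to 0.32. The ends for Cxcl12 came without Has2 replicate 2 and without GFP replicate 2, each with the other library of the pair kept. The causes were not tested.

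For sex by virus the chemokines called, none without the block, were 5 with the replicate block (29.5% of genes), 1 with DESeq2 (4.46%), 3 with DESeq2 and the block (23.7%), 1 with the trend removed beside the block (10.6%), and 0 to 6 with each replicate left out (at most 32.8% of genes), where a lone sample or pair is assumed to vary like the others. The difference reversed for Ccl7 with the trend removed (0.20, and 0.23 with the block) and for Ccl9 on library totals (-0.0065). With replicates left out it ran from -2.07 to 1.73 for Ccl2, -0.56 to 0.48 for Ccl7, -0.14 to 0.15 for Ccl9 and -0.48 to 0.24 for Cxcl12. The ends of these ranges came from unpaired fits that left out a single library and kept the other of its pair. With whole pairs left out, the Ccl2 difference in the blocked edgeR fit ran from -0.53 to 0.23. The lowest count of a chemokine was 52 reads (exact Poisson 95% interval 38.8 to 68.2). The size of counting error beside the spread between preparations was not tested.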

Other observations

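Outside the 10 genes, the most abundant chemokines of the cultures were Cx3cl1, which encodes fractalkine, and Cxcl14, named here after their values were seen. Cx3cl1 measured 354 ± 80.4 CPM with GFP virus and 377 ± 153 with Has2 virus (SD, n = 4). Cxcl14 measured 345 ± 385 and 393 ± 454 CPM (SD, n = 4), with the preparation of replicate 3 at 914 and 1063 CPM, several times above the others under both viruses. Ccl12, a mouse monocyte chemoattractant close to Ccl2, measured 16.4 ± 7.00 and 13.6 ± 7.22 CPM (SD, n = 4) and, like Ccl2, was lowest in replicate 2 under both viruses, at 6.07 and 4.19 CPM.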
